A study of Mus musculus with 2 samples.

Results

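B3galt2 and Cdc73 share 1 stretch of mouse chromosome 1. In mm10, B3galt2 (gene ID 26878) runs from 143640697 to 143649937 on the + strand and lies wholly inside Cdc73 (gene ID 214498), which runs from 143603276 to 143702893 on the - strand. The loops at this locus were all loops with an anchor in either gene or within 10 kb of it, and these were 12 of the 14779 loops listed for sham cortex and 3 of the 15592 listed after stroke. The window of Cdc73 contains that of B3galt2, so the 15 loops are those of Cdc73, and 11 of the sham loops and 3 of the MCAO loops also lie in the window of B3galt2. The locus was chosen because of this difference, so the loop numbers are a description and carry no test.

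B3galt2 encodes a Golgi enzyme that adds galactose in beta-1,3 linkage to N-acetylglucosamine on glycoproteins and glycolipids, and it is expressed in brain. Cdc73 encodes parafibromin, a subunit of the PAF1 complex, which travels with RNA polymerase II and promotes elongation and histone modification along transcribed genes. A chromatin loop in Hi-C is a pair of segments, the anchors, that are ligated to each other more often than their surroundings. Many loops are held by cohesin at sites bound by the insulator protein CTCF, and others bring promoters near distant regulatory DNA.

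The data are 1 Hi-C loop list per group, from frozen mouse cerebral cortex of the operated side. The MCAO group had middle cerebral artery occlusion, in which a filament blocked that vessel for 1 h, and the tissue was taken after 6 h of reperfusion. The sham group had the same surgery and the same 6 h of recovery without filament insertion or occlusion. The labels name 3 cortices per group as biological replicates but give no strain, age or sex, and they do not say at which step the cortices were pooled, if they were. For each loop the list counts the paired-end tags (PETs) that join its anchors, which are read pairs with 1 end in each anchor. The lowest count is 10 in both lists. The libraries held 34974213 PETs (sham) and 40550536 PETs (MCAO), and chromosome 1 had 1259 and 1218 loops. With 1 list per group there is no replicate check and no test between the conditions, and all intervals are 95% intervals that cover counting error only. The lists hold contacts and no expression, so the tissue label could not be set against marker genes.

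The 300 bases around the transcription starts of the genes at these anchors are shown because sham anchors covered the start of B3galt2 but never that of Cdc73, and 1 MCAO loop reached the start of the neighbour gene Glrx2. They run from 250 bases before to 50 bases after the start, 5′ to 3′ on the strand of the gene, and come from RefSeq on GRCm38.p6, the assembly of mm10. Capitals mark matches to the motifs named after the sequences.
B3galt2, chr1:143640447-143640746, + strand: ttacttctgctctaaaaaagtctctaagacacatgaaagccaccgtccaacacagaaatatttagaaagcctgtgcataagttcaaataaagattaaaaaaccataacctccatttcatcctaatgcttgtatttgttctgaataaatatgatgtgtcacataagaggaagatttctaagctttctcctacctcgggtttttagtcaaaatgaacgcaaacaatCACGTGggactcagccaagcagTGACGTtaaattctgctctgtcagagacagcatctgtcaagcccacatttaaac
Cdc73, chr1:143702844-143703143, - strand: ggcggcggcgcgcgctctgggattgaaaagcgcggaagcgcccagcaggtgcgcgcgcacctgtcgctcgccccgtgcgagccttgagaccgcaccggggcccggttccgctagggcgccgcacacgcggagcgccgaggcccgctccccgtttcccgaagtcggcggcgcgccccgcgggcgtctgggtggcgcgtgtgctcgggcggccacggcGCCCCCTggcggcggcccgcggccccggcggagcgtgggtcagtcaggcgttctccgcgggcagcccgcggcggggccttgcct
Glrx2, chr1:143739099-143739398, + strand: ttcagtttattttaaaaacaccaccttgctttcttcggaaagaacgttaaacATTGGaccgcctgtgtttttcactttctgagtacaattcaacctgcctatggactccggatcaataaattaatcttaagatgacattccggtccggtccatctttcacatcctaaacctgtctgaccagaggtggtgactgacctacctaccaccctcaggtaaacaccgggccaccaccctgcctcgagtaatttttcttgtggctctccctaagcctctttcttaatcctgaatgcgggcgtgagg

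Both strands of each promoter were searched for 6 short motifs. The general promoter motifs were TATAAA, the TATA box, and CCAAT, the CCAAT box. TGANTCA stands for AP-1, the dimer of Fos and Jun proteins. TGACGT is part of the cAMP response element. ACGTG stands for the core of the hypoxia response element, and no other form of that core was searched. Part of the CTCF core is AGGNGGC. The promoters of B3galt2 and Cdc73 differ in base composition. That of B3galt2 has 37.7% G or C and 5 CpG, and 7.04% of the 32851 promoters in the table have as little G and C or less. The Cdc73 promoter has 79.7% G or C and 54 CpG, and 98.9% of promoters have as much or less. The median promoter has 52.7% and 7 CpG.

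The B3galt2 promoter holds TGACGT, with its first base at position -4 from the transcription start, a motif found in 7.51% of all promoters. It also holds CACGTG, in which the ACGTG motif and its reverse complement overlap, with the first base at -26; ACGTG is found in 19.6% of promoters. The Cdc73 promoter holds 1 match, to the CTCF motif on the opposite strand with the first printed base at -34, and 29.3% of promoters hold this motif. The Glrx2 promoter holds only CCAAT, on the opposite strand with the first printed base at -198, as do 37.4% of promoters. These matches are letters in a window and were not measured as bound sites.

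**Figure D1:**
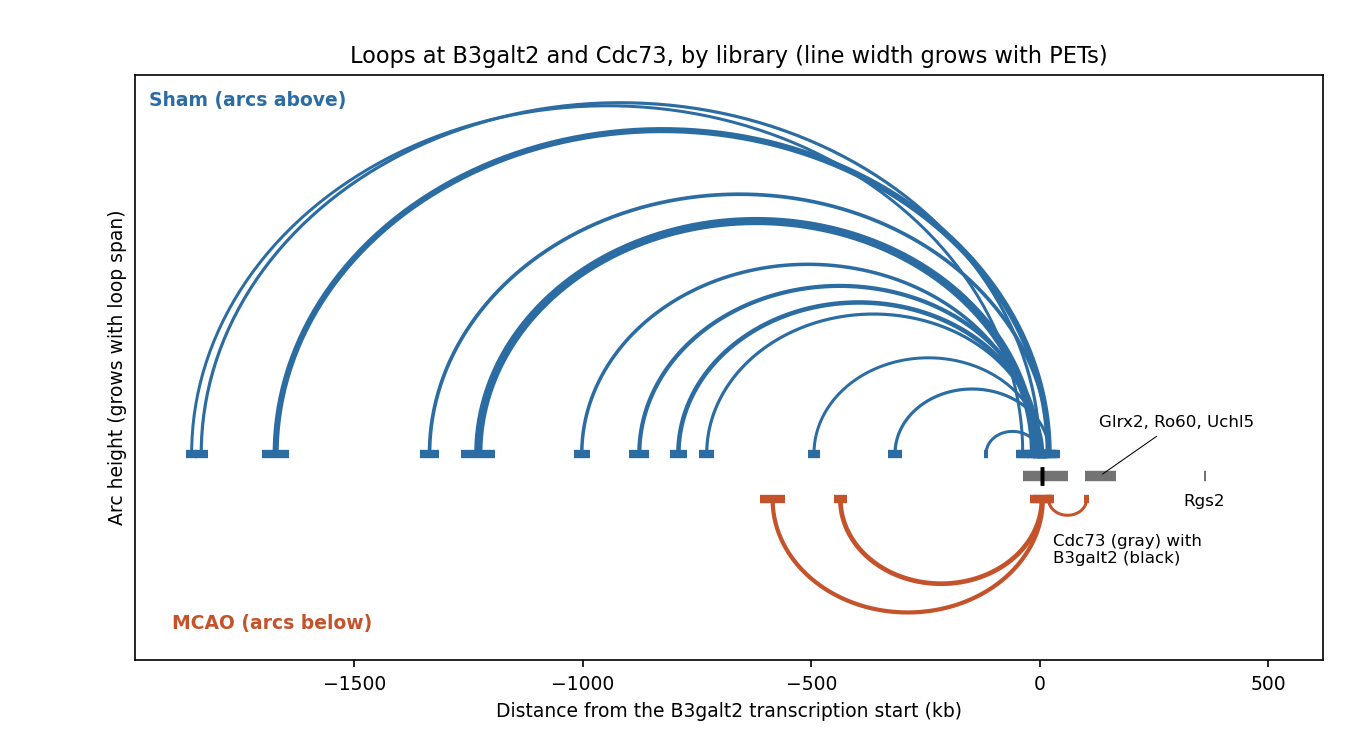
Loops at B3galt2 and Cdc73 drawn as arcs between anchor midpoints, with distance from the B3galt2 start in kb on the x axis, sham loops above and MCAO loops below, bars for the anchors and line width growing with PETs. All 12 sham arcs leave to the left and end in 11 separate far loci, while 2 MCAO arcs leave to the left and 1 to the right, to Glrx2.

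In sham cortex, all 12 loops of the locus ran to the lower-coordinate side, away from the neighbouring coding genes and into a stretch of 2989 kb without coding genes that separates Cdc73 from Kcnt2, a potassium channel gene. The loops did not share a far anchor but fanned out, as the arc map shows. Far anchors that overlapped were counted as 1 far locus, and the 12 loops had 11 far loci, spread over 1756 kb from 141772087 to 143528615. The only far anchors that overlapped were the 2 most distant, at 141772087 to 141797261 and 141790992 to 141820304. With far anchors up to 100 kb apart merged, 7 far loci were left.

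No far anchor of a sham loop lay within 10 kb of a coding gene. Among all sham loops with an anchor at a coding gene, 36.9% had no coding gene at the other anchor. Noncoding genes of unknown role lay within 10 kb of 3 of the 12 far anchors, namely the pseudogene Gm18183 and the long noncoding RNA genes Gm35244 and Gm35303. The 9 others had no annotated gene of any kind.

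The sham loop with the most PETs, 40 (28.6 to 54.5), joined the anchor 143592678 to 143663617 with 142375049 to 142449016, next to Gm18183, over 1216 kb. The next, with 28 PETs (18.6 to 40.5), joined 143634539 to 143686151 with 141939700 to 141997494, over 1692 kb. These stood apart from the other 10 sham loops, which carried 10 to 19 PETs. Their anchors were also the widest of the sham loops, and per 100 kb of anchor they had 27.6 and 25.6 PETs, against 17.1 to 48.3 in the other 10.

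The loop of 790 kb, to 142831896 to 142868084, carried 19 PETs and that of 877 kb, to 142742261 to 142786593, carried 17. The loops of 1356 kb and 990 kb carried 14 and 13 PETs. The remaining 6 sham loops had 10 or 11 PETs, at or just above the listed minimum, and they included both of the most distant loops (1819 and 1835 kb) and the 3 shortest. Loops with so few PETs made up 42.2% of the whole sham list.

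The shortest sham loop, of 116 kb, joined 143634022 to 143644293, an anchor over the B3galt2 start, with 143518200 to 143528615, beside Gm35303, and had 10 PETs. Its anchors were the narrowest at the locus in sham, so that it was the densest loop there, with 48.3 PETs per 100 kb of anchor. The loop of 338 kb, with 11 PETs, ended over Gm35244 and that of 501 kb, with 10 PETs, at 143134100 to 143159312. PETs thus did not fall steadily with distance in sham, since the loops with the most PETs were among the longer ones.

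**Figure D2:**
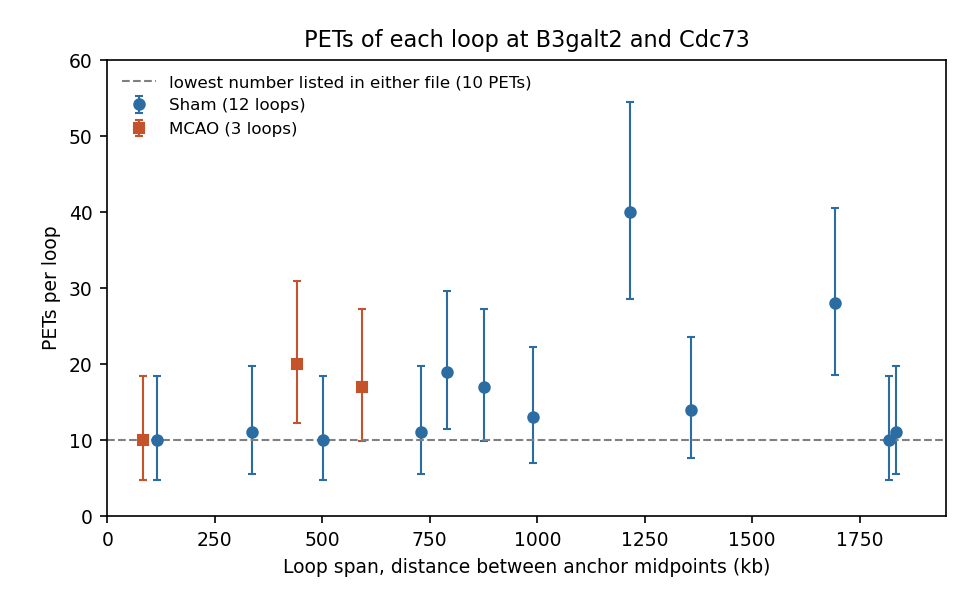
PETs of each loop at the locus against its span in kb, for 12 sham and 3 MCAO loops, with exact 95% Poisson intervals and a dashed line at the listed minimum of 10 PETs. The sham loops reach 1835 kb and 40 PETs, and the MCAO loops reach 591 kb and 20 PETs.

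After stroke, 3 loops were listed at the locus. The first MCAO loop joined 143626049 to 143668909 with 143029502 to 143082780 over 591 kb and had 17 PETs (9.90 to 27.2). The second joined 143619661 to 143671218 with 143189639 to 143219295 over 441 kb and had 20 PETs (12.2 to 30.9). Both ran into the stretch without coding genes, as in sham, but ended within its nearest 611 kb, counted from the B3galt2 start to the outer edge of the far anchor.

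The third MCAO loop ran the other way. It joined 143653445 to 143666931, inside Cdc73 and beyond the end of B3galt2, with 143737424 to 143748996 over 83.0 kb, and had 10 PETs (4.80 to 18.4). Its far anchor covered the start of Glrx2, which encodes a mitochondrial glutaredoxin, and lay within 10 kb of Ro60, which encodes an RNA-binding protein of noncoding Y RNAs. It was the only loop at the locus, in either list, with a coding gene at its far anchor, and the only one to the higher-coordinate side.

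None of the 12 sham loops had a partner in the MCAO list and none of the 3 MCAO loops had one in sham, where a partner has both anchor midpoints within 1 width of the widest anchor. Over the whole lists, 72.5% of sham loops and 73.3% of MCAO loops had no partner. The closest pair was the sham loop of 501 kb and the MCAO loop of 441 kb, whose farther-apart midpoints were 57.8 kb from each other. With 2 anchor widths allowed, 1 sham loop and 2 MCAO loops had a partner. For the 12 sham loops the nearest MCAO loop lay 57.8 to 1272 kb away by the same measure, with a median of 355 kb, and it was a loop of this locus in every case. The 3 MCAO loops had their nearest sham loop at 57.8, 90.6 and 137 kb.

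The far anchors were also compared with all anchors of the other list. The share of all anchors met in this way was not counted, so these numbers are a description only. Of the 12 sham far anchors, 1 was met by an anchor of any MCAO loop, that at 141790992 to 141820304. The MCAO loop there, with 10 PETs, ran 251 kb within the stretch and did not reach the locus. Of the 3 MCAO far anchors, 2 were met by sham anchors, each of a sham loop within the stretch with 10 or 11 PETs.

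The loops of the locus summed to 194 PETs (168 to 223) in sham and 47 (34.5 to 62.5) in MCAO. Per 1000000 PETs of the library this is 5.55 and 1.16, a ratio of 0.209 (0.149 to 0.289), MCAO over sham. Only listed loops enter these sums, so contacts below 10 PETs are not counted, and the sums follow the number of loops. The interval of the ratio takes the listed loops as given. It does not cover which loops reached the minimum, so it is too narrow for the locus as a whole. With at least 15 PETs per loop, 4 sham loops and 2 MCAO loops were left, with 104 and 37 PETs.

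The span of the sham loops ran from 116 to 1835 kb with a median of 933 kb, and 5 of the 12 were over 1 Mb. The median of all sham loops was 377 kb, and 11.5% were over 1 Mb. The MCAO loops of 83.0, 441 and 591 kb stood beside a median of 309 kb in their list.

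**Figure D3:**
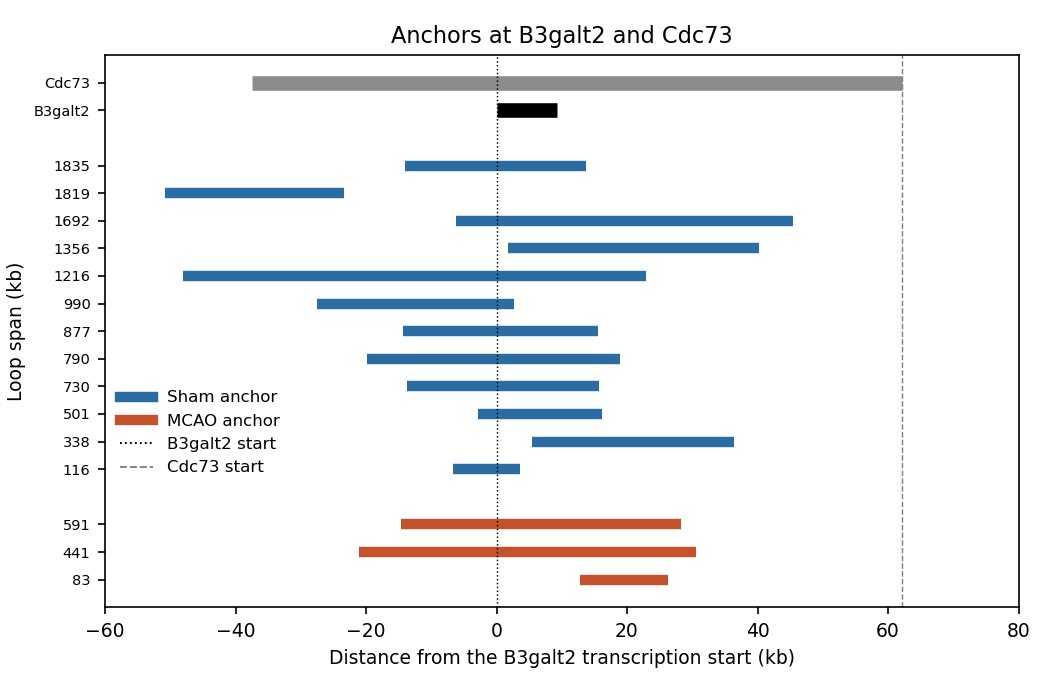
Extent of each anchor at the locus, in kb from the B3galt2 start, ordered by loop span within each library, with both genes drawn above. 9 of 12 sham anchors and 2 of 3 MCAO anchors cover the B3galt2 start, and none reaches the Cdc73 start.

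The anchors within the locus centred on B3galt2 and not on the start of Cdc73. In sham, 11 of 12 anchors overlapped B3galt2, 7 contained it whole and 9 covered its start. The segment from 143642502 to 143643308, inside B3galt2, was shared by 10 of the 12. The exception that did not touch B3galt2 was the anchor of the 1819 kb loop, at 143589899 to 143617269, which covered the lower end of Cdc73, where that gene ends on its - strand.

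No anchor of either list covered the start of Cdc73 at 143702893. The sham anchors ended at 143686151 at the latest and the MCAO anchors at 143671218. In MCAO, 2 of 3 anchors contained B3galt2, and the segment common to all 3, from 143653445 to 143666931, lay beyond it. Median anchor width at the locus was 30.0 kb in sham and 42.9 kb in MCAO.

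No sham loop joined a point wholly below the Cdc73 start with a point wholly above it, and 1 MCAO loop did, the one to Glrx2. Such positions are common, since 43.6% of 21263 coding gene starts had no sham loop across them, and 64.8% had 0 or 1 MCAO loop. Nothing was listed close to the edge of the 10 kb window. The member with the least overlap shared 10.3 kb with the window in sham and 13.5 kb in MCAO. The nearest anchors outside lay 36.4 kb away in sham and 24.5 kb in MCAO, and the number of loops at the locus was the same with no window and with windows of 2.5 and 25 kb.

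Reads at the anchors also differed between the libraries. The anchors within the locus had 25.1 to 39.2 reads per kb in sham, with a median of 31.7, and 22.5, 25.9 and 26.4 in MCAO. The lowest sham value belonged to the anchor that did not touch B3galt2. The other 11 had 28.7 reads per kb or more, above all 3 MCAO anchors, although the MCAO library was 1.16 times deeper. Anchors of a list overlapped here, with 1 segment shared by 10 of the 12 in sham, so they count many of the same reads. They are not separate measurements of a library. Per 1000000 PETs the medians were 0.906 and 0.638, a ratio of 0.704. The anchors differed in width, with medians of 30.0 kb in sham and 42.9 kb in MCAO. Their places were not the same either, and 11 of 12 sham anchors and 2 of 3 MCAO anchors overlapped B3galt2. The part of width and place in this ratio was not tested.

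In the stretch below, the medians over 44 sham and 6 MCAO anchors were 0.693 and 0.531, a ratio of 0.766, and above the locus up to Brinp3 the ratio was 0.921. Over all anchors of the lists it was 0.983. In both libraries the median at the locus was above that of the stretch below, while single anchors overlapped. The part of this read difference in the loop difference was not tested.

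**Figure D4:**
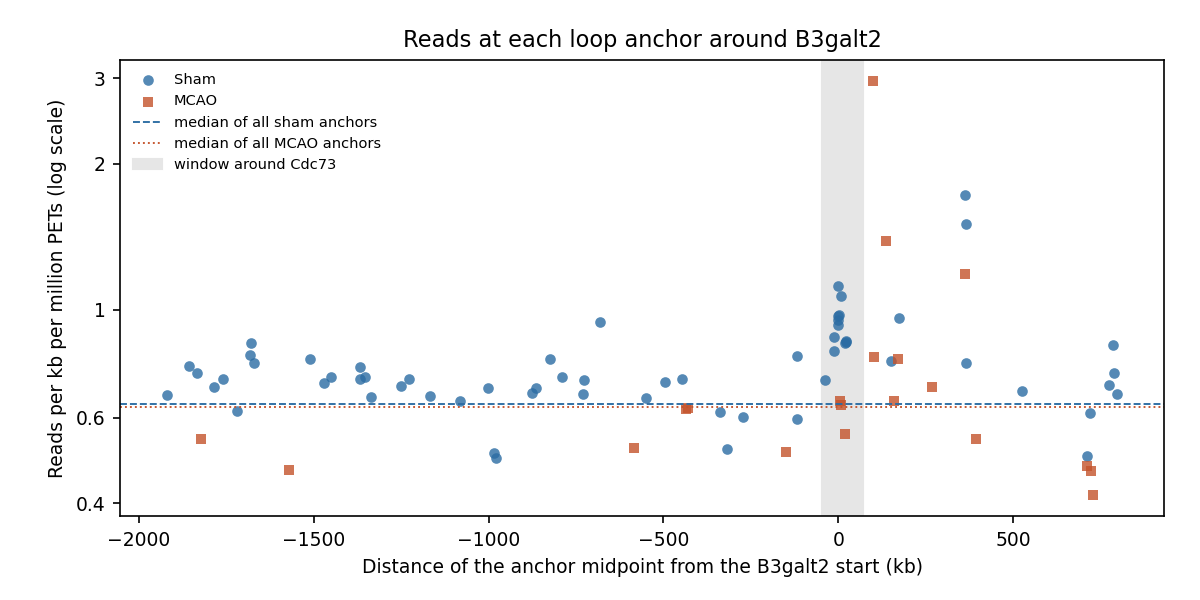
Reads per kb per 1000000 PETs (log scale) at each loop anchor from 2000 kb below to 800 kb above the B3galt2 start, for sham and MCAO, with the median of all anchors of each list as lines and the window around Cdc73 shaded. Sham anchors at the locus have a median of 0.906 and the 3 MCAO anchors a median of 0.638.

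The difference was not confined to the loops that touch the genes. With both anchors inside the stretch without coding genes, and none at the locus, 16 loops were listed in sham and 2 in MCAO, with 201 and 21 PETs. None of these had a partner in the other list, beside 72.5% of all sham loops and 73.3% of all MCAO loops without one. Of the 12 sham far anchors, 9 were also met by anchors of other sham loops, which carried 10 to 25 PETs each. These far ends were thus joined to other places as well as to the locus. How often this holds for sham anchors in general was not counted.

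On the other side of the locus, loops with an anchor at a gene from Glrx2 to Rgs2 were found in both lists. The sham loop with the most PETs in this neighbourhood, 75, ran from 143749248 to 143835720, over Ro60 and Uchl5, which encodes a deubiquitinase of the proteasome, to 144300265 to 144404928. Its MCAO partner, from 143774056 to 143827728 to 144331715 to 144407997, had 27 PETs. The higher anchors of both lay beyond Rgs2, which ends at 144004149. Within 10 kb, Glrx2 had 1 sham and 2 MCAO loops, Ro60 had 1 and 3, Uchl5 had 2 and 3, and Rgs2, a regulator of G-protein signalling, had 3 and 2. The MCAO numbers of Glrx2 and Ro60 include the MCAO loop from the locus to Glrx2, already counted at the locus. Between the locus and Brinp3 as a whole, 20 loops were listed in sham and 8 in MCAO, and 4 in each list had a partner. Over the whole lists, 72.5% of sham and 73.3% of MCAO loops had none.

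Counted per gene within 10 kb, B3galt2 had 11 sham and 3 MCAO loops and Cdc73 had 12 and 3. With 1 added to each number, the ratio of sham to MCAO was 3.00 and 3.25. Of the 15418 coding genes with a loop in either list, 21.3% had a ratio of at least 2 in this direction and 31.6% in the other. A difference at least as large as that of Cdc73 was found at 22 genes, and at least as large as that of B3galt2 at 27, both genes included. Since the locus was chosen by this contrast, nothing is read from its place among the genes.

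**Figure D5:**
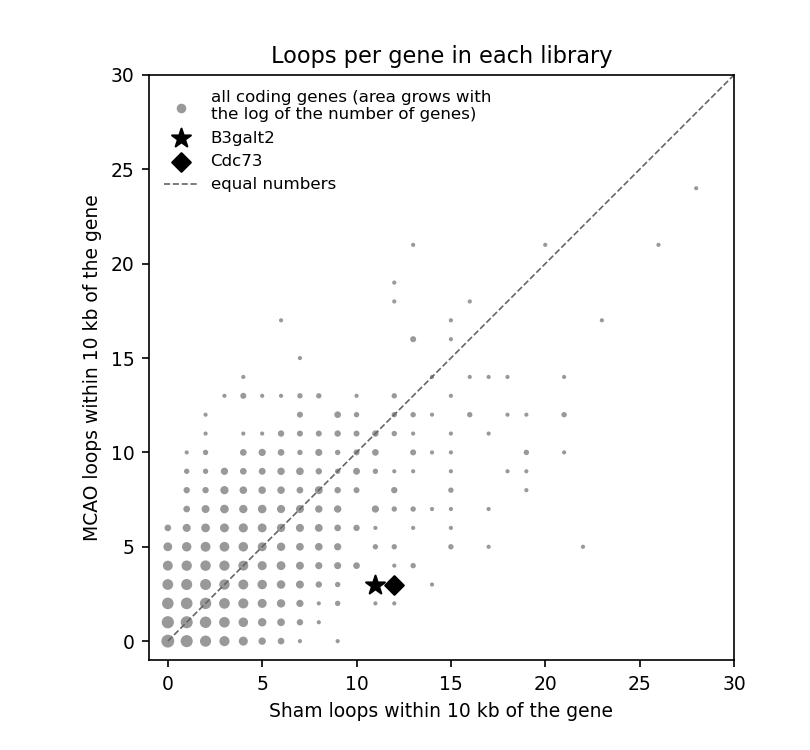
Loops within 10 kb of each of 21887 coding genes in sham (x axis) and MCAO (y axis), with B3galt2 and Cdc73 marked and a dashed line of equal numbers. B3galt2 at 11 and 3 and Cdc73 at 12 and 3 lie below the line, among 27 genes with a difference of at least 8 loops.

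Among 132 genes with at least 10 sham loops, which share many loops where they are neighbours, the median number of MCAO loops was 9. These genes were taken for their high sham numbers and the locus for its contrast, so nothing is read from this median. All sham loops ran to 1 side at 19 of these genes (14.4%), B3galt2 and Cdc73 among them. The number of far loci per sham loop was 0.917 at Cdc73, with a median of 0.75 over these genes. Genes that border a stretch of at least 1 Mb without coding genes, as Cdc73 does, numbered 548 and together had 1877 sham and 1605 MCAO loops. All genes had 24754 and 29130. Of the 428 bordering genes with a loop, Cdc73 included, 23.1% had a ratio of at least 2 towards sham, and the median difference was 0, as over all genes with a loop. More loops in sham were found at 201 bordering genes and more in MCAO at 157, against 5069 and 7300 of all genes. A difference of at least 9 loops towards sham was found at 12 bordering genes, Cdc73 among them, of 22 such genes in all.

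Among the other genes of both pathways, the largest difference towards sham was 1 loop. Of 15 further beta-1,3-glycosyltransferase genes, 3 had more loops in sham, 7 had more in MCAO and 5 had none in either list. Together they had 11 loops in sham and 19 in MCAO, with a median difference of 0. B3galt1, which encodes another beta-1,3-galactosyltransferase of the same kind, had 6 and 9 loops, and B3gnt3, which encodes an N-acetylglucosaminyltransferase, had 0 and 3. Of the 10 with a loop in either list, a ratio of at least 2 was found towards sham at 3 genes, beside 21.3% of all genes with a loop, and towards MCAO at 4, beside 31.6%. Each of these ratios rests on a single loop, except that of B3gnt3.

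The 5 other genes of the PAF1 complex had few loops, 6 in sham and 4 in MCAO, with a median difference of 1 towards sham. Ctr9, the scaffold subunit, had 2 and 1, Paf1 and Rtf1 each had 1 and 0, Leo1 had 1 and 1, and Wdr61 had 1 and 2. A ratio of at least 2 towards sham was found at 2 of the 5, Paf1 and Rtf1, beside 21.3% of all genes with a loop, and it rests on a single loop each. None of the 5 had such a ratio towards MCAO.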

How the data were processed

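Per the labels' protocols, frozen cortex was taken through an Arima Hi-C kit. HiC-Pro, Bowtie2 and the build mm10 are named without versions in the submitters' processing notes. The program that called loops is not given in the sources used here. As whole numbers without scaling for depth, the authors deposited, for each loop, counts of PETs and of reads per anchor. The signal called density was deposited on a scale found here to be PETs over anchor length in kb and over library PETs, per 1000000. This was checked on each loop and gave the library totals. The enrichment ratio and the p-values and FDR (at most 0.05) are the authors' deposited values. The enrichment ratio was not used further, and the p-values only served to take the better part of each list, the loops on the better side of the median hypergeometric p-value. Distances in bp between anchor midpoints are as deposited and were checked.

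Anchors were taken with the coordinates given in the files and genes from a RefSeq table on GRCm38.p6 with 21887 coding genes, in which both genes were matched by symbol. Positions of transcription starts and strands came from the RefSeq promoter table. Intervals are exact Poisson (PETs) or exact binomial (ratios) intervals. A binomial order-statistic interval of the median sham span was used only as a range for that value under other settings. PETs may include copies of 1 molecule. Named genes are both members, genes within 10 kb of far anchors, 2 fixed gene lists and genes within 1 Mb; Kcnt2 and Brinp3 were named as borders after the data were seen. The members, lists and comparisons were chosen with earlier results of these data known. The comparisons with genes of at least 10 sham loops, with bordering genes and across gene starts were added after seeing the data. Matching and counting were tested on simulated data. Python 3.11, pandas 2.3.3, numpy 2.4.6 and scipy 1.17.1 were used.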

Additional observations from a re-analysis of the deposited data

How the results depend on the processing

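Of 57 values recomputed under the alternatives, 45 stayed within the range set for them, 12 moved and 0 changed direction. A change of direction was possible only for differences in loop number. The values of Cdc73 repeat those of the locus. Changes of the window could alter little at the locus, because no anchor lay close to the window edge. The tally is therefore no measure of how robust the results are. When 15 PETs were required, the difference in loop number, sham minus MCAO, was 2 at the locus, at B3galt2 and at Cdc73, the number of far loci in sham was 4, and the PET ratio was 0.307. Among loops on the better side of the median hypergeometric p-value of their list, the difference was 2 at the locus, at B3galt2 and at Cdc73, with 3 sham loops and 1 MCAO loop, the far loci numbered 3, and the ratio of anchor reads was 0.762. Each of these settings leaves fewer loops. With far anchors merged within 100 kb there were 7 far loci, and with partners allowed within 2 anchor widths 1 sham loop had a partner. With MCAO loops held to at least 12 PETs, to allow for depth, the difference at the locus was 10. No paired analysis was possible because each group has 1 library. The depth limits what is seen at the low end: a loop under 10 PETs is not listed, and 6 of the 12 sham loops had 10 or 11.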

Other observations

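A loop between Uchl5 and Rgs2, both above the locus, was listed in sham and MCAO with nearly the same ends. It ran from 143809604 to 143819563 to 144001884 to 144008759 in sham, over 190.7 kb with 19 PETs, and its MCAO partner ran over 190.6 kb with 29 PETs. Per 1000000 PETs these are 0.543 and 0.715. A loop inside the Glrx2 to Uchl5 cluster, of 36.6 kb with 11 PETs, was listed in MCAO without a partner in sham.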
